A study of Rattus norvegicus with 12 samples.

Results

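Decorin and 5 other extracellular matrix genes were followed in CA1 pyramidal layer tissue of the hippocampus from epileptic and control rats. The genes were Dcn (ENSRNOG00000004554), Fn1 (ENSRNOG00000014288), Col1a1 (ENSRNOG00000003897), Col1a2 (ENSRNOG00000011292), Col3a1 (ENSRNOG00000003357) and Sparc (ENSRNOG00000012840), 6 of 32662 Ensembl identifiers counted. They were taken by identifier, and the pairing of identifiers with names belongs to the gene list, since the count tables hold identifiers only. Dcn was chosen by its higher level in the deep than in the superficial sublayer, so its own sublayer difference is given as a description, with no test.

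RNA came from adult male Wistar rats, labelled as 180 to 200 g and 45 to 50 days old. Epileptic rats had received repeated intraperitoneal injections of 5 mg/kg kainate, a glutamate receptor agonist, until status epilepticus, and diazepam at 4 mg/kg to end it. Chronic-phase RNA was collected 6 to 8 weeks after status. The labels give the same age and weight for epileptic and control rats, so neither is taken here as that at collection. Controls were injected with vehicle, saline or DMSO, and cared for in a similar way. The deep sublayer, towards the stratum oriens, and the superficial sublayer, towards the stratum radiatum, were cut from the same brains with a laser, which gave 4 groups of 3 libraries: deep epileptic, superficial epileptic, deep control and superficial control. Seizures were seen in a subset of the epileptic animals, and the collected tissue holds cell bodies of the layer with whatever glia, vessels and interneurons lie among them.

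The extracellular matrix is the mesh of secreted proteins and sugars around cells. In brain most of it is made of hyaluronan and proteoglycans, while fibrillar collagens are largely restricted to the meninges and to the walls of larger vessels. Decorin is a small leucine-rich proteoglycan that coats collagen fibrils and binds the growth factor TGF-beta. Fibronectin, encoded by Fn1, is an adhesive glycoprotein read by integrins and is a component of vessel walls. Sparc is a secreted collagen-binding protein made in brain mainly by endothelial and glial cells.

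The libraries held 16135358 to 25893962 reads assigned to genes. The share of all alignments that fell outside annotated exons separated 4 libraries from the rest. It was 22.3 to 26.7% in both sublayers of epileptic rats 2 and 3. It was 37.7 and 43.0% in epileptic rat 1, and 35.8 to 44.0% in the 6 control libraries. All alignments not assigned to a gene made up 64.9 to 68.4% in those 4 libraries. They made up 68.4 and 68.6% in epileptic rat 1 and 69.2 to 71.4% in controls. The low share thus went mostly with more alignments left unassigned for other reasons, and little with more reads assigned to genes. Levels are given as CPM, read counts divided by the TMM-scaled library size, a scale that permits comparison of a gene between libraries but not of genes with each other. In tissue of this kind fewer cells of a type and less RNA per cell cannot be told apart. No table paired the identifiers with markers of glia, vessels or fibroblasts, so the cell make-up of the tissue was not analysed here.

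Fibronectin showed the most regular pattern of the 6 genes. Fn1 stood at 32.8, 34.6 and 28.7 CPM in deep libraries of epileptic rats 1, 2 and 3, and at 22.5, 19.9 and 26.3 CPM in their superficial libraries. In control rats 1, 2 and 3 it stood at 19.3, 16.0 and 18.8 CPM in deep libraries and at 12.4, 11.8 and 13.1 CPM in superficial libraries. The 4 groups did not overlap, and the order of their levels was deep epileptic, superficial epileptic, deep control and superficial control. The lowest superficial epileptic library (19.9 CPM) lay only just above the highest deep control library (19.3 CPM). Counting alone gives these values a relative error of 4.53 and 5.23%, which is wider than the gap. The share of all identifiers with groups set apart in this way was not computed. Group means were 32.0 ± 3.01, 22.9 ± 3.20, 18.0 ± 1.81 and 12.4 ± 0.615 CPM in that order (SD, n = 3 each).

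**Figure D1:**
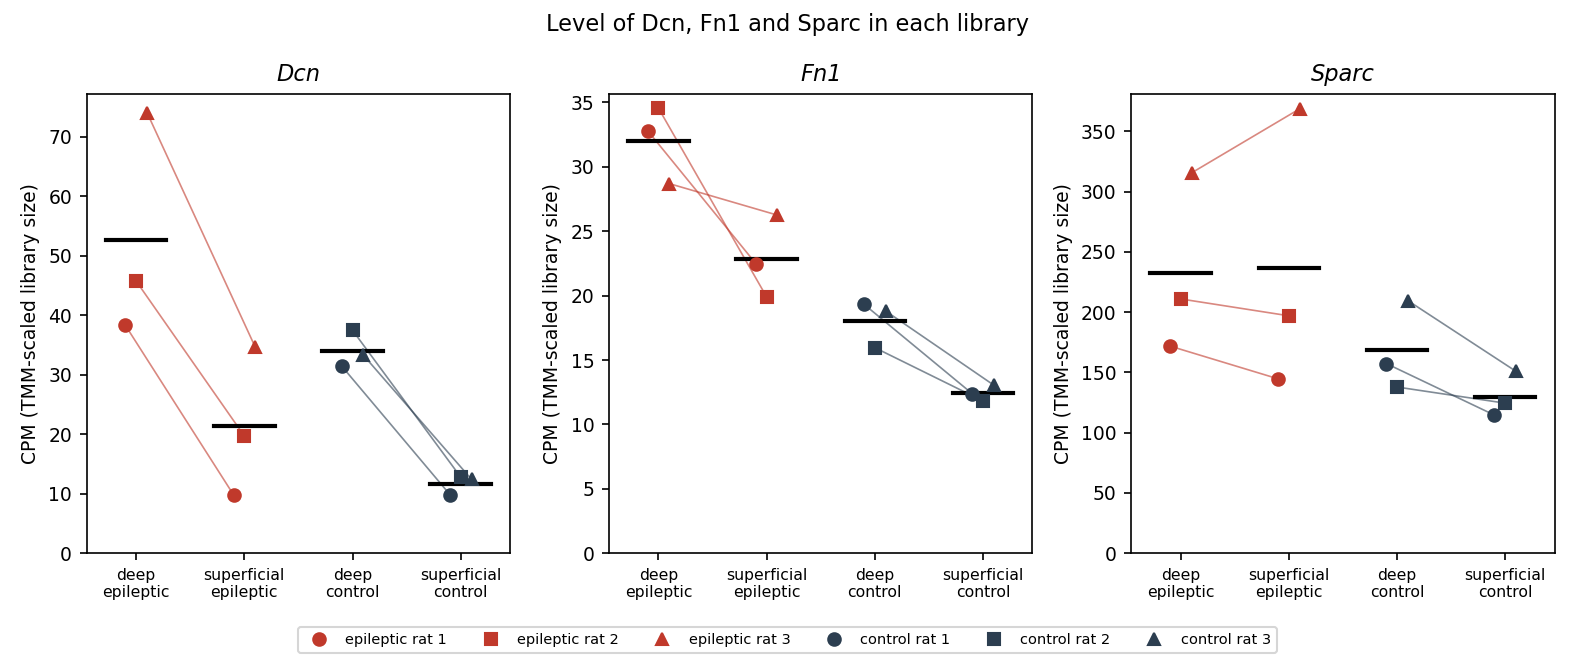
Level of Dcn, Fn1 and Sparc in CPM in each library, by sublayer and condition; symbols mark rats, lines join the sublayers of a rat and black bars are means of 3 libraries. Fn1 falls into 4 groups that do not overlap, though superficial epileptic and deep control libraries nearly meet. Dcn and Sparc are highest in epileptic rat 3 in both sublayers.

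Each epileptic library held more Fn1 than every control library of its sublayer. The level in epileptic over control rats was 1.78-fold in deep CA1 (log2 fold change 0.83, SE 0.12) and 1.87-fold in superficial CA1 (0.90, SE 0.13). Neither passed edgeR's quasi-likelihood test over all identifiers, with adjusted p = 0.06253 in deep and 0.06267 in superficial CA1. With the 2 libraries of each rat added, Fn1 stood at 27.5, 26.7 and 27.7 CPM in epileptic rats 1, 2 and 3, against 15.7, 13.9 and 15.7 CPM in control rats 1, 2 and 3. The spread within each condition was small beside the distance between them. In these sums Fn1 rose 1.81-fold (log2 fold change 0.85, SE 0.09, 95% interval 0.65 to 1.06, edgeR adjusted p = 0.04444), the third smallest p of 15398 identifiers.

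That call lay close to the threshold. It was lost without epileptic rat 2 and without any control rat (adjusted p = 0.2388 to 0.3353), and after adjustment for the share outside exons (0.06025), at log2 fold changes of 0.79 to 0.89. In deep CA1 a block for the replicate number gave Fn1 an adjusted p of 0.01966 at a log2 fold change of 0.83, although the number joins different rats of the 2 conditions. DESeq2 called Fn1 in deep (adjusted p = 7.674e-06) and in superficial CA1 (adjusted p = 2.264e-05).

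Dcn was higher in epileptic than in control libraries on average, but the rats differed widely. In deep libraries Dcn stood at 38.3, 45.7 and 74.1 CPM in epileptic rats 1, 2 and 3, against 31.5, 37.5 and 33.3 CPM in control rats 1, 2 and 3. The deep groups did not overlap, though the lowest epileptic library lay just above the highest control library. In superficial libraries Dcn stood at 9.81, 19.7 and 34.7 CPM in epileptic rats 1, 2 and 3, against 9.85, 12.8 and 12.4 CPM in control rats 1, 2 and 3. Here epileptic rat 1 lay just below the lowest control library, epileptic rats 2 and 3 lay above the highest, and the groups overlapped. The level was 1.55-fold in deep CA1 (log2 fold change 0.63, SE 0.22, edgeR adjusted p = 0.2831) and 1.86-fold in superficial CA1 (0.90, SE 0.45, adjusted p = 0.3269), neither past the test. Its superficial value was called without epileptic rat 1, at a log2 fold change of 1.25 (edgeR adjusted p = 0.03763). Without that rat 1443 identifiers were called over all in superficial CA1, against 2 with it. The superficial value of Dcn was 0.35 without epileptic rat 3. The deep value was 0.30 without epileptic rat 3. In limma-voom with sample quality weights it was called at 0.51 (adjusted p = 0.02472), where 2125 identifiers were called over all. In the sums per rat Dcn stood at 23.8, 31.7 and 53.6 CPM in epileptic rats 1, 2 and 3, against 20.1, 25.2 and 22.3 CPM in control rats 1, 2 and 3, a log2 fold change of 0.69 (SE 0.29, edgeR adjusted p = 0.2725). That value was 0.93 without epileptic rat 1 (adjusted p = 0.04562), 0.30 without epileptic rat 3 (0.333) and 0.0014 after adjustment for the share outside exons (0.9993). Leaving out epileptic rat 1 raised the calls over all identifiers in the sums from 5 to 1417.

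By mean level, Dcn followed the order deep epileptic (52.7 ± 18.9 CPM), deep control (34.1 ± 3.09), superficial epileptic (21.4 ± 12.5) and superficial control (11.7 ± 1.60; SD, n = 3 each). The 2 superficial groups overlapped, as did superficial epileptic with deep control, because the superficial library of epileptic rat 3 reached the deep control range. The coefficient of variation between rats was 35.8% in deep epileptic and 9.06% in deep control libraries. In superficial CA1 it was 58.5% in epileptic and 13.7% in control libraries.

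Among epileptic rats Sparc rose in the same order of rats as Dcn, while among control rats the orders differed. Sparc stood at 171.9, 211.0 and 315.6 CPM in deep libraries of epileptic rats 1, 2 and 3, against 157.4, 137.9 and 209.6 CPM in those of control rats 1, 2 and 3. In superficial libraries it stood at 144.7, 197.0 and 368.8 CPM in epileptic rats 1, 2 and 3, against 114.6, 124.5 and 150.9 CPM in control rats 1, 2 and 3. The groups overlapped in both sublayers through epileptic rat 1, and in deep CA1 epileptic rat 2 lay just above the highest control. By mean level the order was superficial epileptic (236.8 ± 117.2 CPM), deep epileptic (232.8 ± 74.3), deep control (168.3 ± 37.1) and superficial control (130.0 ± 18.8; SD, n = 3 each), and every pair of neighbours in it overlapped. The fold change was 1.39 in deep CA1 (log2 0.47, SE 0.23, edgeR adjusted p = 0.4149) and 1.85 in superficial CA1 (log2 0.89, SE 0.36, adjusted p = 0.2639), neither past the test. Without epileptic rat 3 the log2 values were 0.19 in deep and 0.40 in superficial CA1. In the sums per rat Sparc stood at 157.7, 203.9 and 347.5 CPM in epileptic rats 1, 2 and 3, against 135.0, 130.8 and 178.2 CPM in control rats 1, 2 and 3, a log2 fold change of 0.68 (SE 0.29, edgeR adjusted p = 0.2833). It was 0.29 without epileptic rat 3 and 0.08 after adjustment for the share outside exons.

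Within each sublayer, Dcn and Sparc were highest in the epileptic libraries with a low share of alignments outside exons, while Fn1 was as high in epileptic rat 1. Relative to the control mean of the same sublayer, Dcn was 1.34 to 2.97-fold in the 4 libraries of low share, and 1.12-fold in the deep and 0.839-fold in the superficial library of epileptic rat 1. Sparc was 1.25 to 2.84-fold in the 4 libraries of low share, and 1.02-fold and 1.11-fold in the deep and superficial libraries of epileptic rat 1. Control rat 3, at shares of 43.9 and 40.7%, also reached 1.25-fold in its deep and 1.16-fold in its superficial library for Sparc. Fn1 was 1.59 to 2.11-fold in the 4 libraries of low share, and 1.82-fold and 1.81-fold in the deep and superficial libraries of epileptic rat 1, whose share lay within the control range.

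With that share as a covariate, the log2 fold change of Dcn in epileptic over control rats was 0.11 (SE 0.18) in deep and −0.32 (SE 0.41) in superficial CA1. That of Sparc was 0.04 (SE 0.25) and 0.16 (SE 0.45), and that of Fn1 0.92 (SE 0.15) and 0.89 (SE 0.20), in deep and superficial CA1. By edgeR only Fn1 in deep CA1 passed in this fit (adjusted p = 0.03699). A low share was seen in epileptic libraries only, so the covariate takes up part of any difference between the conditions.

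**Figure D2:**
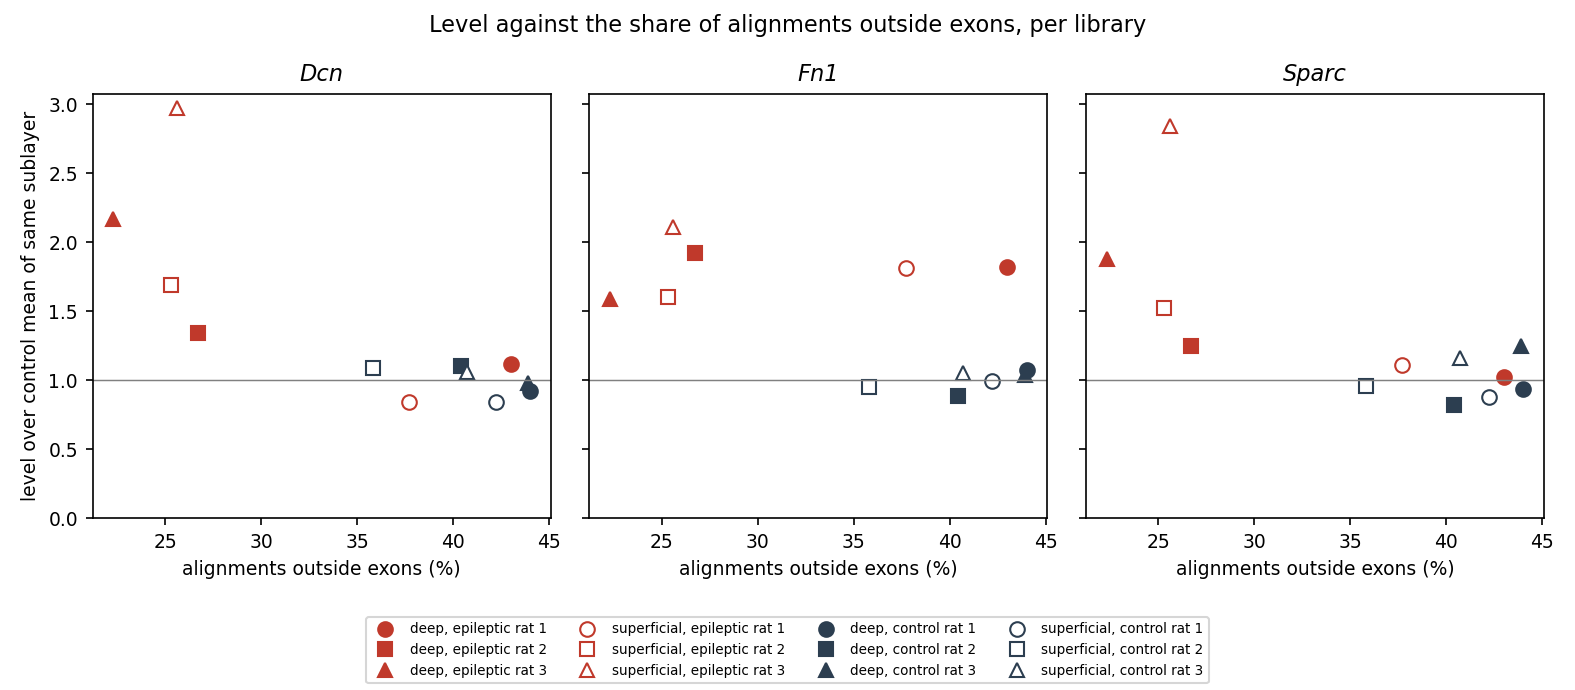
Level of Dcn, Fn1 and Sparc in each library relative to the mean of the 3 control libraries of its sublayer, against the percentage of alignments outside exons; filled symbols are deep and open symbols superficial libraries. The 2 libraries of epileptic rat 1, at 37.7 and 43.0%, lie just outside the control range for Dcn. They lie within that range for Sparc and well above it for Fn1.

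The fibrillar collagens were scarce. Col1a1, the alpha 1 chain of type I collagen, had 36 to 94 counts per library, and Col3a1, the chain of type III collagen, had 26 to 61. Counting alone gives such values a relative error of 10.3 to 19.6%, which covers counting error only. Col1a1 stood at 3.77, 2.21 and 3.18 CPM in deep libraries of epileptic rats 1, 2 and 3, against 3.28, 1.88 and 2.67 CPM in those of control rats 1, 2 and 3. In superficial libraries it stood at 2.79, 1.47 and 4.44 CPM in epileptic rats 1, 2 and 3, against 1.82, 2.30 and 4.14 CPM in control rats 1, 2 and 3. All 4 groups overlapped. The log2 fold change in epileptic over control rats was 0.23 in deep CA1 (95% interval −0.44 to 0.89) and 0.10 in superficial CA1 (−0.97 to 1.17).

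Col3a1 stood at 2.48, 1.78 and 2.91 CPM in deep libraries of epileptic rats 1, 2 and 3, against 1.38, 1.94 and 2.14 CPM in those of control rats 1, 2 and 3. In superficial libraries it stood at 1.77, 1.51 and 1.89 CPM in epileptic rats 1, 2 and 3, against 1.24, 1.39 and 3.28 CPM in control rats 1, 2 and 3. The conditions overlapped in both sublayers, and control rat 3 held the highest superficial value. The log2 fold change was 0.40 in deep CA1 (95% interval −0.26 to 1.06) and −0.17 in superficial CA1 (−1.08 to 0.74). The superficial value rested on control rat 3 and was 0.40 (SE 0.30) without it. All 4 collagen intervals include no change. Neither collagen passed edgeR's test in either sublayer (adjusted p = 0.579 to 0.925).

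**Figure D3:**
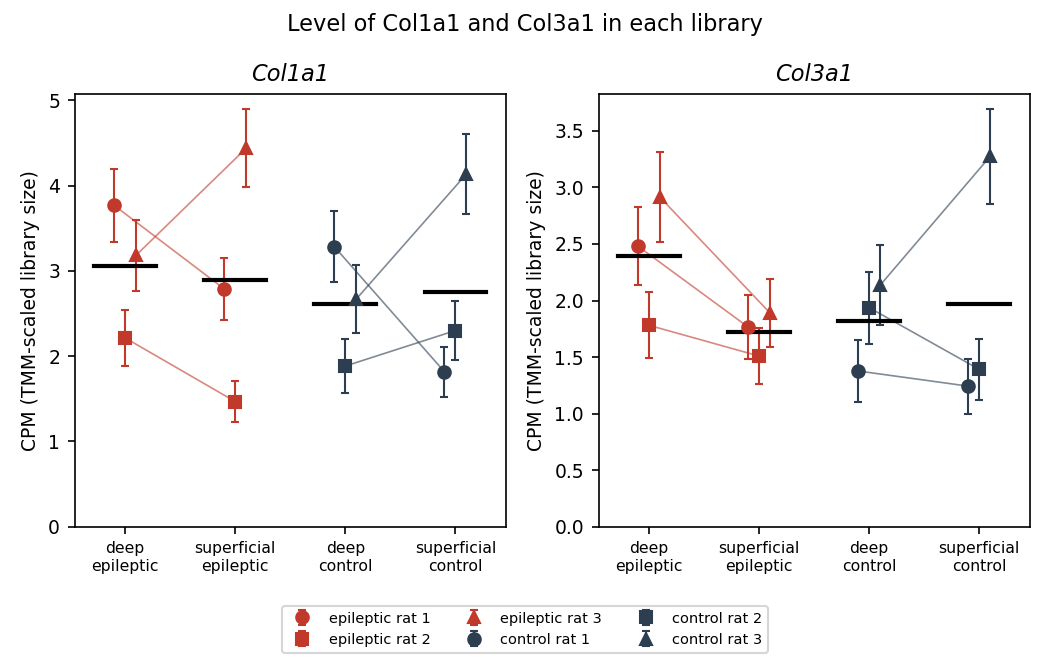
Level of Col1a1 and Col3a1 in CPM in each library; error bars show counting error (1 SD of a Poisson count), lines join the sublayers of a rat and black bars are means of 3 libraries. The conditions overlap for both genes in both sublayers.

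Col1a2, the alpha 2 chain that normally pairs with the alpha 1 chain in type I collagen, had 1 count in the deep library of epileptic rat 1 and 0 in the other 11 libraries. A count of 0 allows up to 3 counts, or 0.122 to 0.178 CPM over the libraries. The near absence of counts beside measurable Col1a1 leaves it uncertain whether this identifier holds the reads of Col1a2, so nothing is said here of that gene's level. The filter on low counts left it out of the tests, and no value of it is given from the fits without that filter. The other 5 genes passed that filter in all fits.

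As a list, 0 of the 5 tested genes passed in deep CA1 by edgeR (0% of 14261 identifiers passed, with 13.7% at an unadjusted p below 0.05) and 0 of 5 in superficial CA1 (0.0140% of 14321 passed, with 18.9% unadjusted). At an unadjusted p below 0.05, the list had Dcn and Fn1 in deep and Fn1 and Sparc in superficial CA1. DESeq2 called 1 of the 5 in each sublayer, and 376 and 885 identifiers over all in deep and superficial CA1. In the sums per rat 1 of 5 passed, against 0.0325% of 15398 identifiers. Epileptic libraries lay wholly above control libraries for Dcn and Fn1 in deep CA1, where this held for 8.93% of all identifiers, and for Fn1 in superficial CA1, where it held for 11.2%. The median log2 fold change in deep CA1 was 0.47 for the 5 genes and 0.00093 for all identifiers, and in superficial CA1 it was 0.89 and 0.00684. Both medians of the 5 are the Sparc value; without epileptic rat 3 they were 0.24 in deep and 0.35 in superficial CA1, and after adjustment for the share outside exons 0.36 and 0.07.

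Within rats, Dcn had the steepest gradient from deep to superficial CA1 of the 5 genes, the property for which it had been chosen. The deep level was 3.91, 2.32 and 2.14 times the superficial one in epileptic rats 1, 2 and 3, and 3.19, 2.93 and 2.68 times in control rats 1, 2 and 3. The fitted fold was 2.60 in epileptic rats (log2 1.38, SE 0.13) and 2.93 in control rats (log2 1.55, SE 0.14). The log2 ratios had an SD of 0.47 in epileptic and 0.125 in control rats (n = 3 each). The fit used 1 spread for both conditions. The deep library was higher in each of the 6 rats. The log2 fold in epileptic minus that in control rats was −0.17 (SE 0.19). It was −0.40 without epileptic rat 1 and −0.01 without epileptic rat 3.

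**Figure D4:**
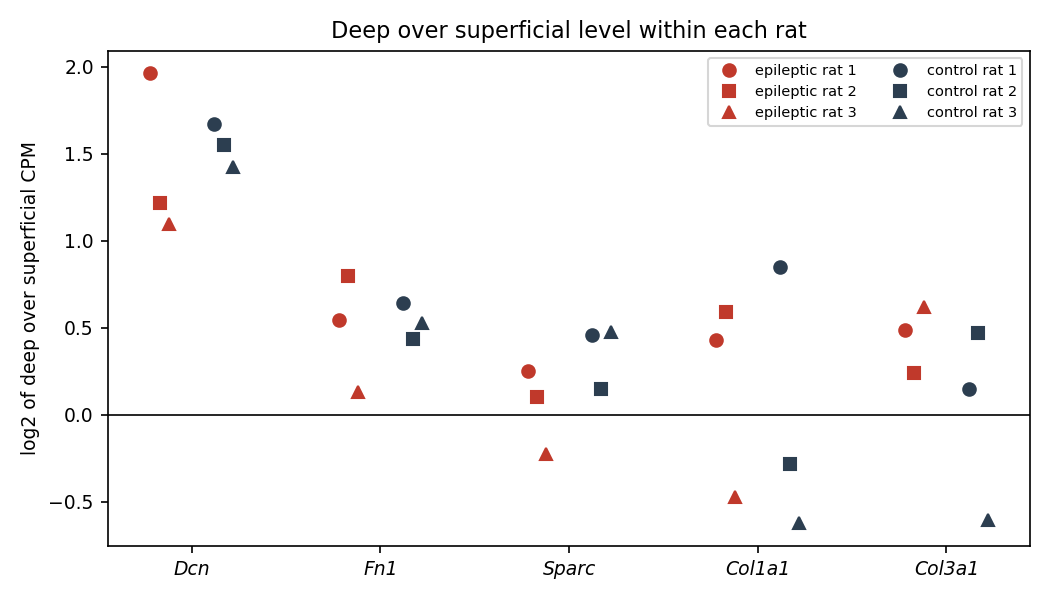
Log2 ratio of the deep over the superficial CPM within each rat for 5 genes, epileptic rats left of control rats. Dcn and Fn1 lie above 0 in all 6 rats, Sparc in all but epileptic rat 3, and the collagens on both sides.

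Fn1 had a shallower gradient of the same direction. Its deep level was 1.46, 1.74 and 1.09 times the superficial one in epileptic rats 1, 2 and 3, and 1.56, 1.35 and 1.44 times in control rats 1, 2 and 3. It was higher in deep than in superficial CA1 in 6 of 6 rats, with the smallest ratio in epileptic rat 3. Fn1 was 1.41-fold higher in deep CA1 of epileptic rats (log2 0.49, SE 0.10, edgeR adjusted p = 0.006048). In control rats it was 1.45-fold higher (log2 0.54, SE 0.11, adjusted p = 0.008321). The log2 ratios of the rats had an SD of 0.34 in epileptic and 0.10 in control rats (n = 3 each). The fit used 1 spread for both conditions, so its SE in epileptic rats does not carry their wider spread. The 6 epileptic libraries alone gave log2 0.51 (SE 0.12, edgeR adjusted p = 0.03231). The call in epileptic rats was lost without epileptic rat 2 (log2 0.34, adjusted p = 0.1074). The call in control rats was lost without control rat 1, 2 or 3 (adjusted p = 0.09882, 0.05548 and 0.06844). It was also lost after adjustment for the share outside exons (log2 0.40, adjusted p = 0.06019). That share was higher in the deep library of each control rat (44.0, 40.4 and 43.9%) than in the superficial one (42.2, 35.8 and 40.7%). In control rats the covariate can therefore take up part of any gene's sublayer difference.

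The sublayer difference of Fn1 was −0.04 on the log2 scale in epileptic minus in control rats (SE 0.15, 95% interval −0.37 to 0.28, edgeR adjusted p = 0.9804).

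Sparc was 1.28-fold higher in deep CA1 of control rats (log2 0.36, SE 0.08, edgeR adjusted p = 0.01661), with a higher deep library in 3 of 3 rats. In epileptic rats its fold was 1.03 (log2 0.04, SE 0.08, adjusted p = 0.8213), and in epileptic rat 3 the deep level was 0.856 times the superficial one. The difference between the conditions was −0.32 (SE 0.12, 95% interval −0.58 to −0.07), with an unadjusted p of 0.01528 by edgeR and an adjusted p of 0.659, so it did not pass. It was −0.19 without epileptic rat 3, and it was called with no low-count filter (−0.32, adjusted p = 0.02147; 0.02147 to 0.9999 over the alternatives). The call in control rats was lost without control rat 1 (adjusted p = 0.1453) or 3 (0.1703), and after adjustment for the share outside exons (log2 0.23, adjusted p = 0.3272). It was also lost in limma-voom with the rat as a random effect (log2 0.36, adjusted p = 0.3002). That fit estimates the correlation within rats. With no block for the rat, which ignores the pairing of sublayers, the call was lost too (edgeR adjusted p = 0.9057).

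The collagens showed no sublayer difference past the test. Col1a1 had a log2 fold change, deep over superficial, of 0.13 in epileptic rats (95% interval −0.42 to 0.68) and −0.03 in control rats (−0.62 to 0.55). Its deep library was higher in epileptic rats 1 and 2 and in control rat 1. Col3a1 had 0.46 in epileptic rats (95% interval −0.01 to 0.93, edgeR adjusted p = 0.2056), with a higher deep library in 3 of 3, and −0.06 in control rats (−0.57 to 0.45).

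Leaving out Dcn, 1 of 4 tested genes was called higher in deep CA1 of epileptic rats, against 5.00% of 14791 identifiers called in that direction, and 2 of 4 in control rats, against 4.18%. The median log2 fold change of the 4 was 0.30 in epileptic and 0.16 in control rats, against −0.0152 and −0.00786 over all identifiers. The median of the 4 in epileptic rats was 0.17 without epileptic rat 2, and that in control rats 0.09 without control rat 1, 0.27 without control rat 2 and 0.32 without control rat 3. No member passed for the difference between the conditions by edgeR, where 0% of 14791 passed and 6.60% lay at an unadjusted p below 0.05. DESeq2 called none of the 4 there and 2 identifiers over all.

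**Figure D5:**
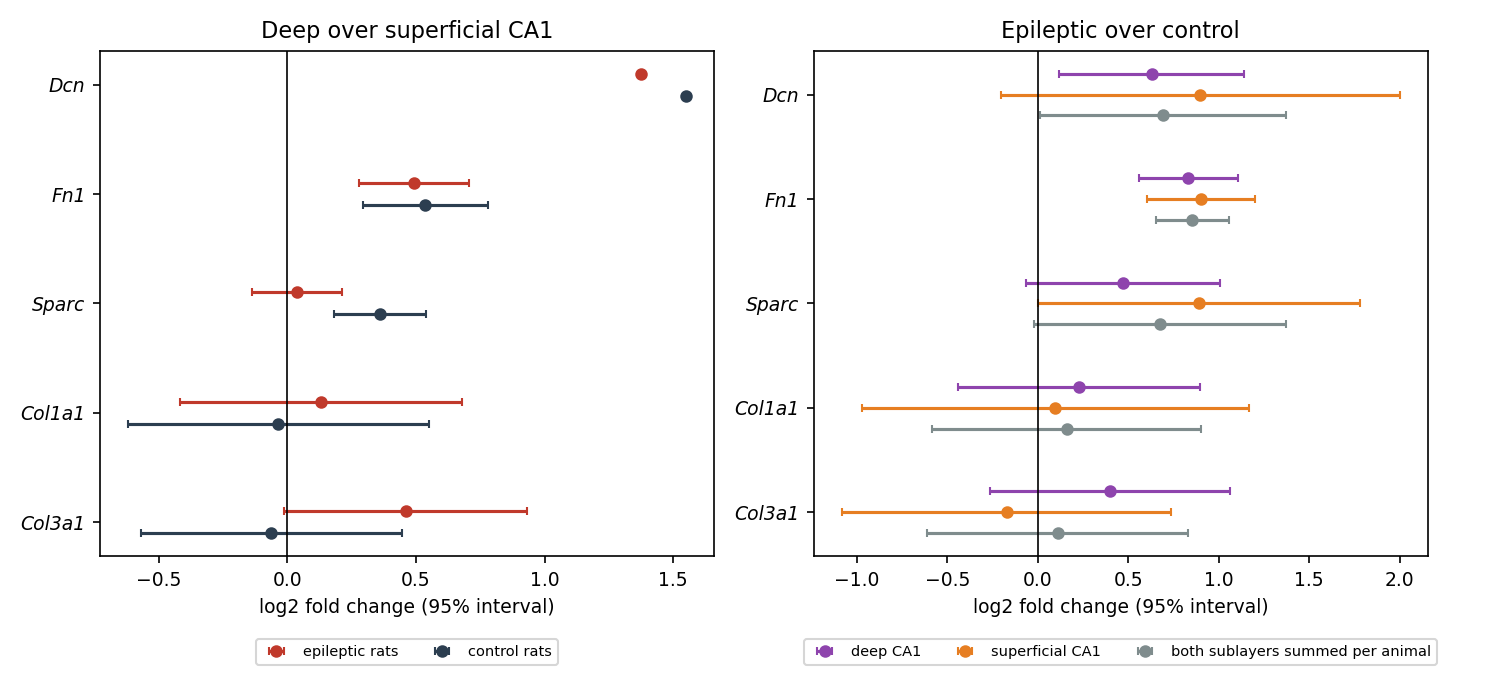
Fitted log2 fold changes from edgeR, deep over superficial CA1 (left) and epileptic over control rats (right), with 95% intervals; Dcn is drawn without an interval on the left, as it was chosen for that difference. Fn1 intervals lie above 0 throughout, while collagen intervals all span 0.

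Across the 12 libraries, which come from 6 rats and share the effects of sublayer and condition, log2 CPM of Dcn and Sparc correlated at 0.69 by Pearson's r and 0.67 by Spearman's rho. The r was 0.60 without the 2 libraries farthest from the Dcn median. Fn1 and Sparc had an r of 0.67 and a rho of 0.76, and Dcn and Fn1 0.70 and 0.66. Col1a1 had r values of 0.22 with Dcn, 0.30 with Fn1 and 0.59 with Col3a1. These are descriptions of the libraries, with no test.

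Among 9396 identifiers of mean log2 CPM of at least 3, those most like Dcn over the 12 libraries were ENSRNOG00000000940 (Pearson r = 0.958, rho = 0.923) and ENSRNOG00000000168 (r = 0.955, rho = 0.804). Those most like Fn1 were ENSRNOG00000048315 (r = 0.976, rho = 0.979) and ENSRNOG00000057556 (r = 0.961, rho = 0.944). Those most like Sparc were ENSRNOG00000005788 (r = 0.984, rho = 0.986) and ENSRNOG00000019555 (r = 0.981, rho = 0.958). Without the 2 libraries farthest from the median of the gene in question the r of these 6 pairs was 0.938 to 0.961. The collagens lay below the level needed for this comparison.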

How the data were processed

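RNA sequencing counts of 12 libraries were used, as deposited by the authors: raw read counts per Ensembl gene, 1 table per library, without normalization. STAR 2.5.0c, HTSeq 0.6.1, FastQC 0.11.3 and SAMtools 0.1.19 are listed in the submitters' processing notes with the build Rnor_6.0. Strand use and settings are not given in the sources used here, and overlapping or antisense genes therefore cannot be told apart. The 5 summary tallies per table, 64.9 to 71.4% of alignments, entered neither library sizes nor tests. The gene table at hand follows another assembly and holds no Ensembl identifiers, so no coordinates are given, and lists of other matrix genes and cell type markers were not analysed here.

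The analysis used edgeR 4.0.16 under R 4.3.3: filterByExpr (minimum count 10, minimum total 15), TMM scaling, the quasi-likelihood test with robust dispersions and Benjamini-Hochberg adjustment over all identifiers tested, threshold 0.05. Sublayers were compared within rats in 1 fit of the 12 libraries that had each rat as a block. Epilepsy was tested in the 6 libraries of each sublayer and in the summed counts of the 2 libraries of each rat, 3 rats against 3, so these fits share libraries. The SE is the absolute log2 fold change divided by the square root of F, and 95% intervals use it with the degrees of freedom of the test. Within-rat log2 ratios added 0.5 to each count, and correlations used log2 CPM after adding a prior count of 2. Alternatives used DESeq2 1.42.0 and limma 3.58.1. Some of the fits were also run on simulated counts drawn with no effect of the rat. Such counts cannot show how the tests hold where libraries of a rat are alike, and no outcome is used here.

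Deviations from group means correlated between the deep and superficial libraries of a rat (r = 0.316 to 0.77). Between epileptic and control libraries of 1 number they correlated at 0.218, 0.104 and 0.244 in deep, 0.212, 0.00252 and 0.17 in superficial libraries, and 0.268, 0.0615 and 0.237 in the sums, for numbers 1, 2 and 3. These correlations do not single out deep CA1. The blocked fit is given beside the deep result, where it changed the call of Fn1. In that fit Fn1 had an edgeR adjusted p of 0.05306 in superficial CA1 and 0.04344 in the sums. No libraries of a group were duplicates (chi-square per identifier 7.29 to 124). The 6 genes are named throughout by rule, with the 2 identifiers most like each gene above the level floor. The members and lists were chosen with earlier results of these data known. P-values of the epilepsy comparisons measure the spread between 3 rats per condition. Those of the sublayer comparisons measure the spread of the deep over superficial difference between rats, estimated over both conditions together. In both, the spread of a gene was moderated by that of the other identifiers.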

Additional observations from a re-analysis of the deposited data

How the results depend on the processing

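Counts below are of the list's tested genes, Dcn left out of the sublayer comparisons. Deep over superficial in control rats, 2 were called. The count was 0 with the share outside exons as covariate. It was also 0 with no block for the rat, which ignores the pairing of sublayers. It was 1 (Fn1, with Sparc lost) with rats as a random effect, and 0 to 2 without 1 rat. The covariate, the fit with no block and the random effect called 846, 5 and 734 identifiers over all, against 1248 as reported. Without 1 rat it was 416 to 2071. In epileptic rats 1 was called, 0 with no block for the rat and 0 to 1 without 1 rat. Over all identifiers this comparison had 1484 calls as reported, 5 with no block for the rat and 536 to 2217 without 1 rat. For the difference between the conditions 0 were called, and 1 (Sparc) with no low-count filter, where 178 identifiers were called over all (0 as reported). In epileptic over control rats, deep CA1 gave 0, but 2 (Dcn and Fn1) with quality weights. It gave 1 each with DESeq2, no low-count filter, the share outside exons, the replicate block and the random effect. It gave 0 to 1 without 1 rat. Over all identifiers deep CA1 had 0 calls as reported, 2125 with quality weights, 376 with DESeq2 and 103 with no low-count filter. It had 99 with the share outside exons, 239 with the replicate block, 65 with the random effect and 0 to 552 without 1 rat. Superficial CA1 gave 0, but 1 each with DESeq2, quality weights, no low-count filter and the random effect, and 0 to 2 without 1 rat. Over all identifiers superficial CA1 had 2 calls as reported, 885 with DESeq2 and 1746 with quality weights. It had 130 with no low-count filter, 317 with the random effect and 0 to 1443 without 1 rat. The sums per rat gave 1, but 0 with the share outside exons and 0 to 2 without 1 rat. Over all identifiers the sums had 5 calls as reported, 21 with the share outside exons and 0 to 1417 without 1 rat. The replicate block changed no call of the list in superficial CA1 or in the sums. The cause was not tested.

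Fn1 kept its sign in all alternatives of the 5 comparisons of sublayers or conditions, at log2 0.75 to 0.92 in deep and 0.77 to 0.99 in superficial CA1 for epileptic over control rats. Dcn turned to −0.32 in superficial CA1 with the share outside exons as covariate, and its deep over superficial value in control rats was 1.29 in that fit. Over all identifiers the count called ranged from 5 to 2554 in control and 5 to 2636 in epileptic rats between sublayers (1248 and 1484 as reported) and 0 to 178 for their difference (0 as reported). Between conditions it ranged from 0 to 2125 in deep, 0 to 1746 in superficial CA1 and 0 to 2479 in the sums (0, 2 and 5 as reported). For Col1a1 and Col3a1 the coefficient of variation between rats was 11.3 to 57.5% in the 4 groups, beside a counting error of 10.3 to 19.6%.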
